A study of Mus musculus with 13 samples.

Results

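The imprinted growth genes are 10 named genes of the mouse heart: Igf2, Igf2r, Grb10, Dlk1, H19, Meg3, Plagl1, Peg3, Mest and Cdkn1c. They were taken by symbol from 33821 genes with a named transcript, and the level of each was the sum of the FPKM, an abundance per transcript length and library size, of its transcripts of at least 200 nucleotides. A value in every library was available for 9 of the 10; Mest had none in 5 libraries. RNA was measured in 13 libraries of wild-type FvB mice, an inbred strain, with atria removed. Of these, 5 were whole ventricles at E17 (embryonic day 17), PN1 (postnatal day 1), PN10, PN28 and PN90, with 1 library per stage. Cardiomyocytes, the contracting muscle cells of the heart, gave 2 later libraries (PN30 and PN67) and 2 neonatal libraries (PN1-2 and PN1). Cardiac fibroblasts, the cells that make its connective tissue, gave 2 later libraries (PN28 and PN60) and 2 neonatal libraries. The neonatal fibroblast libraries are titled PN1-3 and PN1-2, while their age label is PN1 for both. Neonatal cardiomyocytes came from preplating, and PN30 and PN67 cardiomyocytes from Langendorff perfusion, so for this cell type stage and isolation cannot be told apart. All fibroblast libraries used preplating after enzymatic digestion. Cell type and isolation therefore cannot be told apart between the later libraries, nor in how far the changes of the cell types differ. Whether libraries of a group came from separate animals or cultures is not labelled. The p-values therefore reflect the spread among these libraries alone, which may be technical.

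At an imprinted gene, 1 of the parental copies is silenced by a mark set in the germ line, so expression comes mainly from the other copy. As a group these genes are known for setting fetal and early postnatal growth: the paternally expressed Igf2, Dlk1, Plagl1, Peg3 and Mest, and the maternally expressed H19, Igf2r, Grb10, Cdkn1c and Meg3. Many of them are abundant in the fetus and silent or low in most adult organs. The deposited values carry no parental allele, so imprinting itself was not measured here.

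Of the 10 genes, 4 lie on chromosome 7 and 2 on chromosome 12. In the mm9 coordinates of the deposited tables, H19 (chromosome 7, 149761434 to 149764048) ends 72624 bases before Igf2 (149836673 to 149852721), its partner in 1 imprinted domain. Peg3 (6656603 to 6683132) and Cdkn1c (150644255 to 150646955) are on the same chromosome. Dlk1 (chromosome 12, 110691033 to 110701546) ends 77664 bases before Meg3 (110779211 to 110809936), which shares its domain. Igf2r is on chromosome 17 (12875272 to 12962530), Plagl1 on chromosome 10 (12810497 to 12851500), Grb10 on chromosome 11 (11830511 to 11938686) and Mest on chromosome 6 (30673547 to 30698455).

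Promoter windows of RefSeq (build GRCm38.p6, 250 bases before to 50 after a start site) were held for 8 of the 10 genes; H19 and Cdkn1c had none. Igf2 and Grb10 have several start sites, and the windows below are those whose start site lies within 50 bases of an isoform whose share of its gene is compared further on. The Igf2-204 start lies 3775 bases before that of Igf2-201, and the Grb10-203 start 9449 bases after that of Grb10-201.
Igf2-201 (chr7:142657447-142657746, minus strand): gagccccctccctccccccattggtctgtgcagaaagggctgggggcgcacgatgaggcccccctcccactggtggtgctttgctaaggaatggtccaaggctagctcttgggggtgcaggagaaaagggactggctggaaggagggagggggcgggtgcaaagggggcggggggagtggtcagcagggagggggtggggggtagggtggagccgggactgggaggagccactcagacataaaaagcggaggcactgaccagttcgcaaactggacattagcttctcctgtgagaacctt
Igf2-204 (chr7:142661222-142661521, minus strand): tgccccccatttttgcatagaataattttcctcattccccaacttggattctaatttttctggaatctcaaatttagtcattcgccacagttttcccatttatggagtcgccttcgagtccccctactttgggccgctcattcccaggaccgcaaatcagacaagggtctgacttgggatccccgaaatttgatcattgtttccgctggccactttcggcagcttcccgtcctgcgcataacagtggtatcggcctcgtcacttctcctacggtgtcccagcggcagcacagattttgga
Grb10-201 (chr11:12037371-12037670, minus strand): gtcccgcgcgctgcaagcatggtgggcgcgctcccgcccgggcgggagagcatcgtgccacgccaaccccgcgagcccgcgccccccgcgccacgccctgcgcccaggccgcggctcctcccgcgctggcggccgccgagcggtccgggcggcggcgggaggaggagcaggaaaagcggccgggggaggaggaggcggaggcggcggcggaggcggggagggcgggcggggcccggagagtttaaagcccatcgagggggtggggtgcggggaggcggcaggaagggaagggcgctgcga
Grb10-203 (chr11:12027922-12028221, minus strand): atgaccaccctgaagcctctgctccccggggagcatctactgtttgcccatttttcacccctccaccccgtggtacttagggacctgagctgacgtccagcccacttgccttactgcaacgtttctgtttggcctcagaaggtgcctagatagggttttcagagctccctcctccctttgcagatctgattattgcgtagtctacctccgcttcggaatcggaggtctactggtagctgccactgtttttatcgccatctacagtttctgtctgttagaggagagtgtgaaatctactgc
The windows differed in base composition. The Grb10-201 window held 45 CpG dinucleotides and 80.0% G and C, against 9 and 52.3% in the Grb10-203 window. The Igf2-204 window held 14 CpG and 49.7% G and C, against 7 and 63.3% in the Igf2-201 window. Over all 32851 windows the medians were 7 CpG and 52.7%.

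Both strands of the windows were searched for TATAAA, the core of a TATA box, and for GGGGCCCC, a palindrome given here without a named factor. TATAAA was present in the window of Meg3 only, at 29 and 25 bases before its start site, and GGGGCCCC in that of Peg3 only, 201 bases before it. Among all windows 13.6% held TATAAA and 1.08% held GGGGCCCC. The 2 windows are shown because they carry these matches, which are in capitals; the capitals of Meg3 join a match on each strand that overlap. A match is a run of letters, not a shown binding site.
Meg3-205 and Meg3-207 (chr12:109540746-109541045, plus strand): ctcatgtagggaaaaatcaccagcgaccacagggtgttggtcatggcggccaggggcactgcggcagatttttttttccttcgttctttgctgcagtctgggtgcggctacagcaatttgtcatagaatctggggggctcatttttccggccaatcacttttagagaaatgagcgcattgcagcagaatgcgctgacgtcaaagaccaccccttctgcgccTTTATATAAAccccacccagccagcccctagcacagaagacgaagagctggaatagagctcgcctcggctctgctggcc
Peg3-201 and Peg3-204 (chr7:6730370-6730669, minus strand): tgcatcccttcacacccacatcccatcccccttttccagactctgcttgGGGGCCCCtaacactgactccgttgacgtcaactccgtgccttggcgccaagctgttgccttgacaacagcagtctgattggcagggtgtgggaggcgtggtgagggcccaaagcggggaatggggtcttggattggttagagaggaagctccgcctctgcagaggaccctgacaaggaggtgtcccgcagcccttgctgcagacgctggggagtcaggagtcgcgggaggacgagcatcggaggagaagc

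Of the 10 genes, 4 also hold microRNAs in their transcripts, with 8 mature arms in RefSeq: H19 (miR-675), Igf2 (miR-483), Meg3 (miR-770) and Mest (miR-335). The arms within H19 and Igf2, the neighbours whose levels are set against each other further on, are printed with bases 2 to 8, the seed, in capitals. No seed is shared among them, and mature microRNAs are shorter than the transcripts summed here, so their levels were not measured.
miR-675-5p: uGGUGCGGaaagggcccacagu
miR-675-3p: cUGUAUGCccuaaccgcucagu
miR-483-5p: aAGACGGGagaagagaagggag
miR-483-3p: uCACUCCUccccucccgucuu

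The cell labels were checked against marker genes. The 12 measured cardiomyocyte markers summed to 46889 and 46027 FPKM in later cardiomyocytes, 12895 and 11885 in neonatal cardiomyocytes, 28.7 and 36.9 in later fibroblasts and 1330 and 1137 in neonatal fibroblasts. Per gene, neonatal fibroblasts held these markers at a median of 9.38% of the neonatal cardiomyocyte level, and later fibroblasts at 0.0667% of the later cardiomyocyte level. Fibroblast markers stood in cardiomyocytes at a median of 13.2% of the fibroblast level in the later libraries and 7.49% in the neonatal ones (8 genes). Erythroid markers, mainly globins, summed to 15381 and 20445 FPKM in neonatal cardiomyocytes, against 163 and 71.7 in neonatal fibroblasts. Macrophage and leukocyte markers summed to 1278 and 1032 FPKM in later fibroblasts, against 141 and 279 in neonatal fibroblasts. Markers of other cell types were thus present in most groups. In bulk RNA, fewer cells of a type and less RNA per cell cannot be told apart. The neonatal pairs correlated across 12076 genes, which are not independent replicates, with a Spearman's rho of 0.993 in cardiomyocytes and 0.989 in fibroblasts. Fragment totals are not given; as a proxy for depth, the median coverage per unit of FPKM ranged over 19.5 to 32.8.

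Levels below are FPKM scaled by median ratios within the 5 ventricle or the 8 cell libraries. Ventricle RNA was depleted of ribosomal RNA and cell libraries followed a TruSeq protocol, so ventricle and cell levels are not compared. Changes are on the log2(FPKM + 1) scale, which understates the change of low genes, and were tested with limma across all genes, with Benjamini-Hochberg adjustment.

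In ventricles the growth genes fell together from the fetus to the adult. Of 9 measured members, all 9 had a negative slope over the 5 stages at an adjusted p below 0.05, where 14.6% of 11621 genes did (20.4% had a positive one). Dlk1 reached the mean of 1 FPKM needed for a test only through E17, so it could enter this count only with a fall. Without the E17 library it was not tested. The median slope was -0.83 per stage on the log2(FPKM + 1) scale, against 0.01 over all genes. Levels fell at every step in 8 of the 9, a count for which the share over all genes was not computed. Cdkn1c was the exception, at 12.6 FPKM at PN10 and 13.3 FPKM at PN28. The share of lower calls among all calls in this fit depended on scaling: it was 41.7%, and 73.0% with FPKM as deposited or 69.5% with mitochondrial genes removed and equal sums. In number, lower calls over all genes were 1693, against 3445 as deposited and 2889 with equal sums.

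Igf2 encodes a secreted insulin-like growth factor. It stood at 238 FPKM at E17, 121 at PN1, 48.4 at PN10, 8.63 at PN28 and 3.73 at PN90. Each stage was below the one before, and PN90 was at 1.57% of E17. The slope was -1.50 ± 0.10 per stage (SE, limma adjusted p = 0.00416). Igf2r, the receptor that clears this ligand by taking it to the lysosome, stood at 247, 152, 70.4, 58.0 and 52.7 FPKM over the same stages. Most of its fall was complete by PN10, and PN90 was still at 21.4% of E17 (slope -0.58 ± 0.09, limma adjusted p = 0.00656). Grb10, an adaptor that dampens insulin and IGF receptor signalling, stood at 327, 202, 87.6, 55.8 and 33.7 FPKM. Its slope was -0.83 ± 0.06 (limma adjusted p = 0.00416), and PN90 was at 10.3% of E17.

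H19, a long noncoding RNA, was the most abundant of the genes at E17. It stood at 4578 FPKM at E17, 1677 at PN1, 257 at PN10, 34.2 at PN28 and 27.8 at PN90. It made up 82.0% of the summed FPKM of the 9 genes at E17 and 20.6% at PN90, where Igf2r was the most abundant of them. Its slope was the steepest of the 9, at -2.02 ± 0.18 (limma adjusted p = 0.00416). Meg3, the maternally expressed long noncoding RNA of the Dlk1 domain, was low throughout, at 8.78, 4.51, 3.31, 0.943 and 0.713 FPKM (slope -0.65 ± 0.07, limma adjusted p = 0.00419).

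Dlk1, a transmembrane protein of the Notch ligand family that holds back differentiation of fat precursors, stood at 7.84 FPKM at E17, 1.41 at PN1, 0.0811 at PN10 and 0.00917 at PN28, and was listed at 0 at PN90. Its signal was thus nearly gone by PN10 (slope -0.75 ± 0.17, limma adjusted p = 0.0198; -1.64 with a pseudocount of 0.1). Plagl1, a zinc-finger transcription factor, stood at 59.7, 36.2, 11.5, 1.86 and 1.10 FPKM, and PN90 was at 1.84% of E17 (slope -1.34 ± 0.11, limma adjusted p = 0.00416). Peg3, another zinc-finger protein, stood at 54.0, 31.5, 18.1, 6.29 and 3.76 FPKM (slope -0.92 ± 0.06, limma adjusted p = 0.00416). Cdkn1c, which encodes the cyclin-dependent kinase inhibitor p57, stood at 65.1 FPKM at E17 and then between 11.3 and 16.7 FPKM at the 4 postnatal stages. Its slope of -0.52 ± 0.15 (limma adjusted p = 0.0452) became -0.16 (adjusted p = 0.215) without the E17 library, and the call was also lost without PN28 (0.103) or PN90 (0.0580), without a filter on low values (0.127) and with transcripts of any length (0.0560). Mest, which encodes a hydrolase-like protein of the endoplasmic reticulum, stood at 124 FPKM at E17, 13.3 at PN10, 2.81 at PN28 and 1.33 at PN90, and has no value at PN1.

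**Figure D1:**
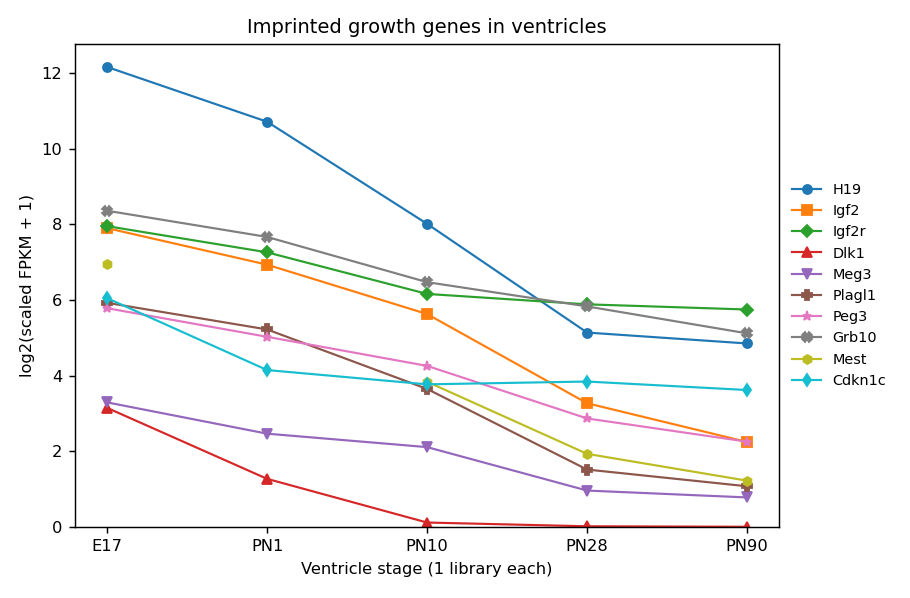
Level of each of the 10 genes as log2(scaled FPKM + 1) on the vertical axis, against ventricle stage on the horizontal axis, with 1 library per stage and no error bar. H19 starts highest, at 4578 FPKM at E17, and ends at 27.8 FPKM at PN90, below Igf2r and Grb10; Mest has no point at PN1.

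The steps between stages have 1 library on each side and no test, and a gene was counted where FPKM + 1 changed more than 2-fold. From E17 to PN1, H19, Dlk1 and Cdkn1c were lower past 2-fold, or 3 of the 9 genes against 1.45% of all genes. From PN1 to PN10 there were 6 of 9 against 3.47%: H19, Igf2, Igf2r, Dlk1, Plagl1 and Grb10. From PN10 to PN28 there were 5 of 9 against 2.50%: H19, Igf2, Meg3, Plagl1 and Peg3. From PN28 to PN90 only Igf2 passed, with a log2 difference of -1.02, against 0.508% of all genes. None was higher past 2-fold at any step, where 2.35%, 3.05%, 3.60% and 0.465% of all genes were, in order of stage. Over the whole course all 9 were lower past 2-fold at PN90 than at E17, against 10.4% of all genes, and 16.0% of genes were higher. Dlk1 entered these counts only through its E17 level. By the 2-fold cut the steps thus differed by gene. Cdkn1c passed only before PN1, Igf2r, Grb10 and Dlk1 not after PN10, and Igf2 up to PN90. Short of the cut, Grb10 went on falling, with log2 differences of -0.64 from PN10 to PN28 and -0.71 from PN28 to PN90. Peg3 had -0.61 over the last step. With 1 library per stage, an order in time was not tested. Cell type markers moved along the same stages: summed cardiomyocyte markers stood at 14015 FPKM at E17 and 37074 at PN90, epicardial and mesothelial markers at 70.3 and 6.94, and erythroid markers at 4798 and 182. Their part in the falls was not tested.

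The isolated cells gave the same genes by cell type. In cardiomyocytes, 8 of 9 measured genes were lower in the later than in the neonatal libraries at an adjusted p below 0.05, and none was higher, where 29.8% of 12076 genes were lower and 37.2% higher. The median log2 change of the 9 was -2.52, against 0.10 over all genes. In fibroblasts, 8 of 9 were lower and none higher, where 20.8% of genes were lower and 19.7% higher, with a median of -1.77 against -0.02. Cdkn1c in cardiomyocytes and Meg3 in fibroblasts did not pass. Dlk1 reached the mean of 1 FPKM needed for a test only through its neonatal levels, so its 2 lower calls add no separate support. Scaling shifted the whole distribution: with mitochondrial genes removed and equal sums, the median over all genes was -0.28 in cardiomyocytes and -0.30 in fibroblasts, and with FPKM as deposited -0.19 and -0.29. Lower genes were then 63.5% of cardiomyocyte calls and 76.0% of fibroblast calls with equal sums, and 59.1% and 76.0% as deposited, against 44.4% and 51.3% under median ratios. In number they were 5231 and 4706 with equal sums and 4867 and 4656 as deposited, against 3594 and 2507. Erythroid markers moved with stage in cardiomyocytes (1103 and 712 FPKM in the later libraries, against 15381 and 20445 in the neonatal ones), and cardiomyocyte and macrophage markers in fibroblasts as given above. Endothelial markers were lower in the later libraries for 10 of 11 genes in cardiomyocytes (median log2 change -1.02) and 7 of 11 in fibroblasts (-0.80). Epicardial and mesothelial markers were lower for 4 of 8 genes in cardiomyocytes (-0.65) and 7 of 8 in fibroblasts (-1.32). Their part in the changes of the growth genes was not tested.

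Igf2 stood at 27.3 FPKM at PN30 and 12.4 FPKM at PN67 in cardiomyocytes, against 581 and 558 FPKM in the neonatal pair. The later libraries lay far below the neonatal ones, at 3.48% of their mean (log2 change -4.87 ± 0.32, limma adjusted p = 1.38e-05). In fibroblasts it stood at 35.4 FPKM at PN28 and 30.9 at PN60, against 693 and 942 in the neonatal pair. The groups again did not overlap, with the later mean at 4.05% of the neonatal one (-4.57 ± 0.32, limma adjusted p = 5.75e-05). The difference between the changes in the cell types was -0.30 ± 0.45 (limma adjusted p = 0.587). It became -0.82 (adjusted p = 0.0395) without the PN30 cardiomyocytes and 0.25 (adjusted p = 0.440) without the PN67 cardiomyocytes.

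Igf2r was lower in the later libraries of both cell types. Cardiomyocytes had 39.3 and 37.2 FPKM in the later libraries, against 62.1 and 55.1 in the neonatal ones. Fibroblasts had 18.5 FPKM at PN28 and 28.6 at PN60, against 54.0 and 66.5 in the neonatal libraries. The log2 change was -0.60 ± 0.21 in cardiomyocytes (limma adjusted p = 0.0329) and -1.34 ± 0.21 in fibroblasts (limma adjusted p = 0.00199). The cardiomyocyte call was lost when any of its 4 libraries was left out (adjusted p of 0.0786 to 0.163) and without a filter on low values (0.0744), and the change was -0.95 with FPKM as deposited and -1.06 with equal sums. Grb10 had 40.1 and 31.7 FPKM in later cardiomyocytes, against 90.8 and 85.1 in neonatal ones, and 33.6 and 29.0 FPKM in later fibroblasts, against 95.2 and 86.9 in neonatal ones. Cardiomyocyte means were 115% of fibroblast means in the later libraries and 96.6% in the neonatal ones. Its changes were -1.28 ± 0.15 in cardiomyocytes (limma adjusted p = 0.000175) and -1.51 ± 0.15 in fibroblasts (limma adjusted p = 0.000247).

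H19 had 24.9 FPKM at PN30 and 11.9 at PN67 in cardiomyocytes, against 1127 and 954 in the neonatal libraries. In fibroblasts it had 3.65 FPKM at PN28 and 5.06 at PN60, against 1370 and 2082 in the neonatal libraries. Later levels were 1.77% of neonatal ones in cardiomyocytes and 0.252% in fibroblasts. The changes were -5.83 ± 0.34 (limma adjusted p = 9.37e-06) and -8.31 ± 0.34 (limma adjusted p = 8.19e-06). H19 fell less in cardiomyocytes, with a difference of 2.49 ± 0.48 (limma adjusted p = 0.00316). Later cardiomyocytes held more H19 than later fibroblasts (1.78 ± 0.34, limma adjusted p = 0.00158). Neonatal cardiomyocytes stood at 60.3% of neonatal fibroblasts, a difference that did not pass (-0.70 ± 0.34, limma adjusted p = 0.134).

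Meg3 was mainly a fibroblast RNA. Later fibroblasts had 187 and 169 FPKM, against 240 and 257 in neonatal ones, and this change did not pass (-0.48 ± 0.16, limma adjusted p = 0.0512). It passed with FPKM as deposited (-0.83, adjusted p = 0.00568), with equal sums (-0.83, adjusted p = 0.00500) and without either neonatal cardiomyocyte library (adjusted p = 0.0486 and 0.0495). Cardiomyocytes had 13.1 FPKM at PN30 and 10.5 at PN67, against 44.5 and 34.0 in the neonatal libraries (-1.64 ± 0.16, limma adjusted p = 8.61e-05). The change in cardiomyocytes was the larger (difference -1.17 ± 0.23, limma adjusted p = 0.00384).

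Dlk1 was close to 0 in both cell types after the neonatal stage. It had 0.0541 and 0.0664 FPKM in later cardiomyocytes, against 14.8 and 9.56 in neonatal ones, and 0.207 and 0.317 FPKM in later fibroblasts, against 55.7 and 68.3 in neonatal ones. Later libraries stood at 0.495% and 0.422% of the neonatal level in cardiomyocytes and fibroblasts. The changes were -3.61 ± 0.21 (limma adjusted p = 9.30e-06) and -5.64 ± 0.21 (limma adjusted p = 5.66e-06), with a difference of 2.03 ± 0.29 (limma adjusted p = 0.000836). These sizes rest on the pseudocount: with 0.1 in place of 1 the cardiomyocyte change was -6.23 and the difference 1.21 (adjusted p = 0.0275). As a share of the neonatal level the falls in the 2 cell types were nearly equal.

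Plagl1 changed unequally in the cardiomyocyte and fibroblast libraries. Cardiomyocytes had 3.52 FPKM at PN30 and 2.05 at PN67, against 110 and 103 in the neonatal libraries (-4.86 ± 0.20, limma adjusted p = 3.83e-06). Fibroblasts had 35.7 and 34.9 FPKM in the later libraries, against 109 and 139 in the neonatal ones (-1.77 ± 0.20, limma adjusted p = 0.000509). The later mean was 2.61% of the neonatal mean in cardiomyocytes and 28.5% in fibroblasts, and the difference of the changes was -3.09 ± 0.29 (limma adjusted p = 0.000107). Peg3 had 4.13 and 3.31 FPKM in later cardiomyocytes, against 29.2 and 23.2 in neonatal ones, and 6.18 and 8.73 FPKM in later fibroblasts, against 36.5 and 46.3 in neonatal ones. It fell in both, by a log2 change of -2.52 ± 0.21 in cardiomyocytes (limma adjusted p = 3.68e-05) and -2.33 ± 0.21 in fibroblasts (limma adjusted p = 0.000170), and the difference of the changes did not pass (-0.19 ± 0.30, adjusted p = 0.604).

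Cdkn1c had 11.7 FPKM at PN30 and 14.8 at PN67 in cardiomyocytes, against 16.8 and 14.5 in the neonatal libraries, so the groups overlapped (-0.23 ± 0.18, limma adjusted p = 0.277). It passed with FPKM as deposited (-0.57, adjusted p = 0.0284) and with equal sums (-0.67, adjusted p = 0.0148). Fibroblasts had 8.52 and 11.1 FPKM in the later libraries, against 32.4 and 37.4 in the neonatal ones (-1.74 ± 0.18, limma adjusted p = 0.000319). The difference of the changes was 1.50 ± 0.25 (limma adjusted p = 0.00177). Mest has no value in the 4 neonatal cell libraries, where all of its 11 transcripts carried the status FAIL, and had 2.11 and 0.457 FPKM in later cardiomyocytes and 3.73 and 0.820 FPKM in later fibroblasts.

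**Figure D2:**
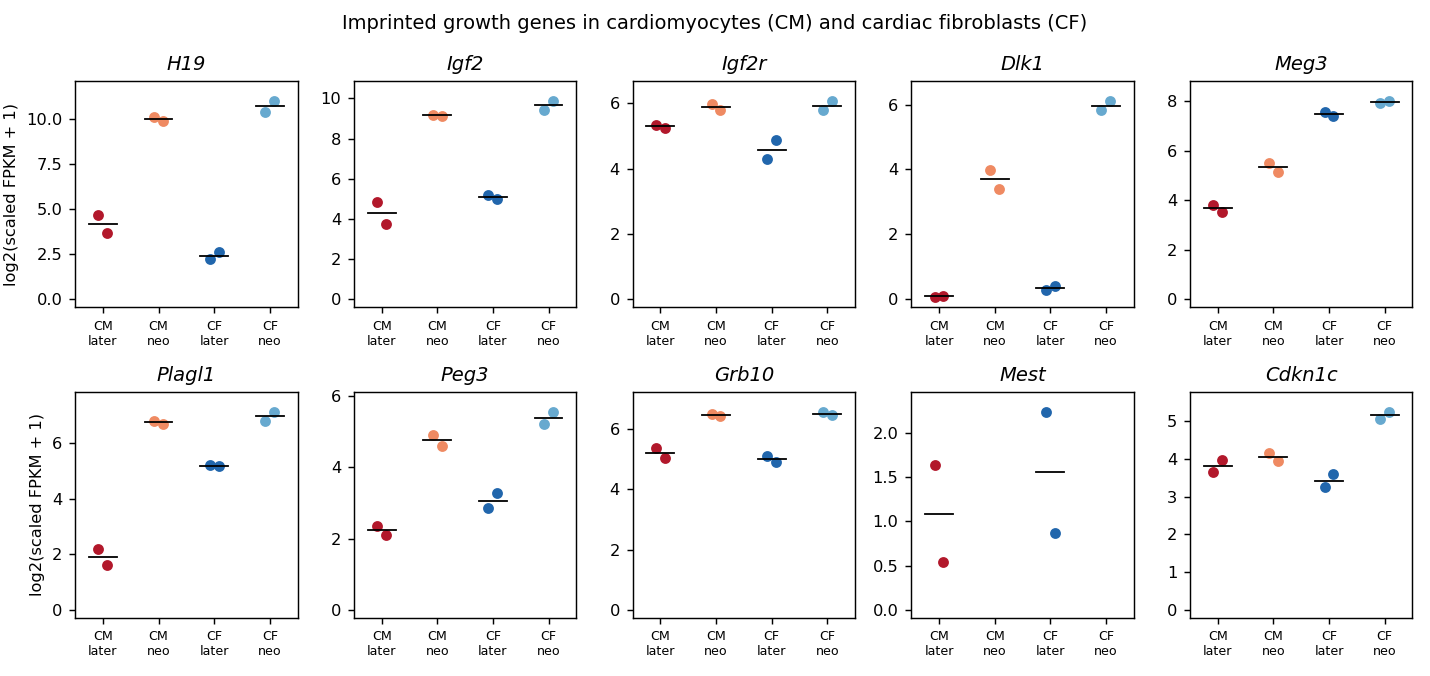
Level of each gene as log2(scaled FPKM + 1) in cardiomyocytes (CM) and cardiac fibroblasts (CF), later and neonatal (neo), with 1 point per library and a line at the group mean. In cardiomyocytes the later and neonatal points of Cdkn1c overlap, and Mest has later points only.

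**Figure D3:**
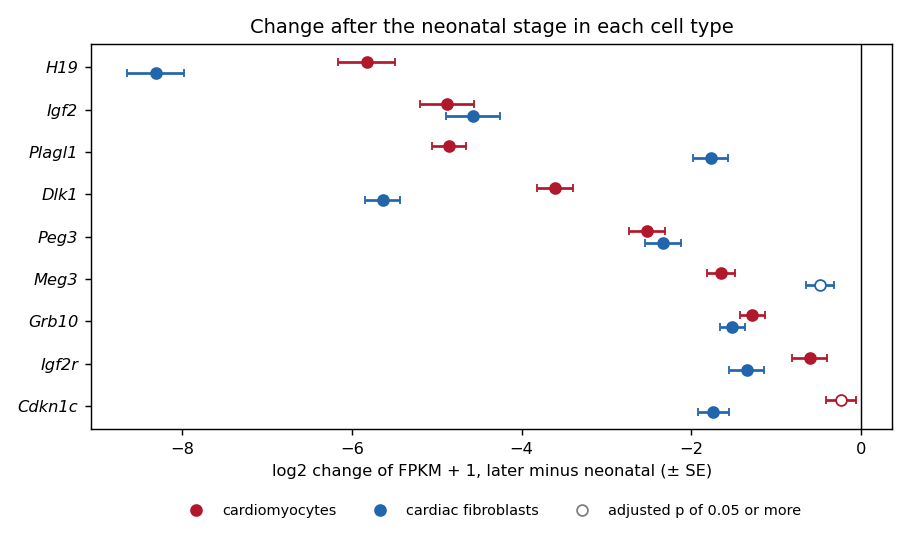
Change between later and neonatal libraries of each cell type as log2 of FPKM + 1, with the standard error of the limma fit; filled points had an adjusted p below 0.05. H19 and Cdkn1c fell further in fibroblasts, and Plagl1 and Meg3 further in cardiomyocytes. The Cdkn1c change in cardiomyocytes and the Meg3 change in fibroblasts did not pass. The gap for Dlk1 depends on the pseudocount, since its later levels were 0.495% and 0.422% of the neonatal ones in cardiomyocytes and fibroblasts.

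The comparisons between cell classes share libraries, so their values are given side by side. In the test of the difference itself, 5 of 9 genes differed between the cell types: H19, Dlk1 and Cdkn1c with a positive difference and Plagl1 and Meg3 with a negative one. Cell type cannot be told apart from the isolation of the later cardiomyocytes in this test. Across all genes 32.2% had a positive and 26.3% a negative difference at this threshold, so differing was common in these libraries. The 2 partners of each domain did not pair in this: H19 differed and Igf2 did not pass, and Meg3 differed, while the positive difference of Dlk1 rests largely on the pseudocount, as given above. Removing any 1 cell library left 5 or 6 genes called.

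Within the neonatal stage, 4 of 9 genes were lower in cardiomyocytes than in fibroblasts, where 19.1% of genes were, and none was higher, where 21.5% were. With equal sums the median over all genes was -0.14, against -0.02, and lower genes were 59.4% of calls, against 47.0% (3289 genes, against 2301). The 4 lower members were Meg3 (-2.64 ± 0.16, limma adjusted p = 2.28e-05), Dlk1 (-2.28 ± 0.21, limma adjusted p = 0.000139), Cdkn1c (-1.11 ± 0.18, limma adjusted p = 0.00233) and Peg3 (-0.64 ± 0.21, limma adjusted p = 0.0433). The Peg3 call was lost under 9 of 14 alternatives, among them the removal of either neonatal library of either cell type. Cardiomyocyte levels were 15.8% of fibroblast ones for Meg3 and 19.6% for Dlk1, against 6.55% to 12.9% for the 8 fibroblast markers. How far admixed fibroblasts contribute to these levels was not tested. Igf2r stood at 97.3% and Grb10 at 96.6% of the fibroblast mean.

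Within the later stage, 2 genes were higher in cardiomyocytes than in fibroblasts, where 38.4% of genes were, and 4 were lower, where 39.3% were. Isolation differed as well, so cell type and isolation cannot be told apart here. H19 and Igf2r (0.71 ± 0.21, limma adjusted p = 0.0139) were higher. The Igf2r call was lost with equal sums (0.46, adjusted p = 0.0957), without the PN30 cardiomyocytes (adjusted p = 0.0590) and without the PN28 fibroblasts (0.39, adjusted p = 0.0557). Meg3 (-3.81 ± 0.16, limma adjusted p = 4.87e-07), Plagl1 (-3.29 ± 0.20, limma adjusted p = 2.99e-06), Peg3 (-0.83 ± 0.21, limma adjusted p = 0.00711) and Igf2 (-0.81 ± 0.32, limma adjusted p = 0.0470) were lower. The Peg3 call was lost without the PN67 cardiomyocytes (adjusted p = 0.0545). The Igf2 call was lost under 10 of 14 alternatives, and the difference was -0.25 without the PN67 and -1.33 without the PN30 cardiomyocytes. Cardiomyocyte levels were 6.64% of fibroblast ones for Meg3 and 7.87% for Plagl1, within the range of the 8 fibroblast markers there (4.11% to 21.9%); their part was not tested. Dlk1, Grb10 and Cdkn1c did not pass, with Dlk1 at 0.317 FPKM or less in all 4 later libraries; with a pseudocount of 0.1 Dlk1 was lower (-1.16, adjusted p = 0.00456). Cdkn1c was higher without the PN30 cardiomyocytes (0.58, adjusted p = 0.0490) and without the PN60 fibroblasts (0.55, adjusted p = 0.0249), against 0.40 ± 0.18 (limma adjusted p = 0.0756) with all libraries.

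The deposited tables list isoforms, and 19 isoforms of 7 of the genes could be tested for their share of the gene in the cell libraries. A call needed both an adjusted p under 0.05 and a shift in share of 10 or more percentage points. Igf2 was the only one of these genes with a called isoform. Igf2-201 made up 58.8% of Igf2 FPKM at PN30 and 52.0% at PN67 in cardiomyocytes, against 72.0% and 75.1% in the neonatal libraries. Igf2-204, which starts upstream in the window shown above, made up 24.1% and 24.3%, against 13.6% and 10.9%. The share of Igf2-201 was lower by 18.1 points (-18.1, limma adjusted p = 0.00196) and that of Igf2-204 higher by 12.0 points (limma adjusted p = 0.00158), where 17.9% of 11170 isoforms were called. Both isoforms fell in FPKM, since the whole gene fell to 3.48% of its neonatal level.

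In fibroblasts the share of Igf2-201 was also lower in the later libraries; whether the shift differed from that in cardiomyocytes was not tested. Igf2-201 held 71.7% and 68.0% in the later libraries, against 80.4% and 80.6% in the neonatal ones, a change of -10.6 points (limma adjusted p = 0.0329). This was the 1 call among the 19 isoforms, where 3.85% of all isoforms were called. It was lost with an offset of 0.1 in the isoform ratio and in 5 of the 8 fits that left out a library. The share of Igf2-204 there changed by 9.51 points, under the size required. Between later libraries, Igf2-201 held a share 14.4 points smaller in cardiomyocytes than in fibroblasts (-14.4, limma adjusted p = 0.00464). It was the 1 call among the 19, where 27.8% of all isoforms were called. None of the 19 was called between neonatal cardiomyocytes and neonatal fibroblasts, where 6.94% were, although Igf2-201 differed by -6.96 points (limma adjusted p = 0.0816). With isoforms that overlap in all but their first exons, Cufflinks shares fragments by an estimate, so small shares are poorly resolved.

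**Figure D4:**
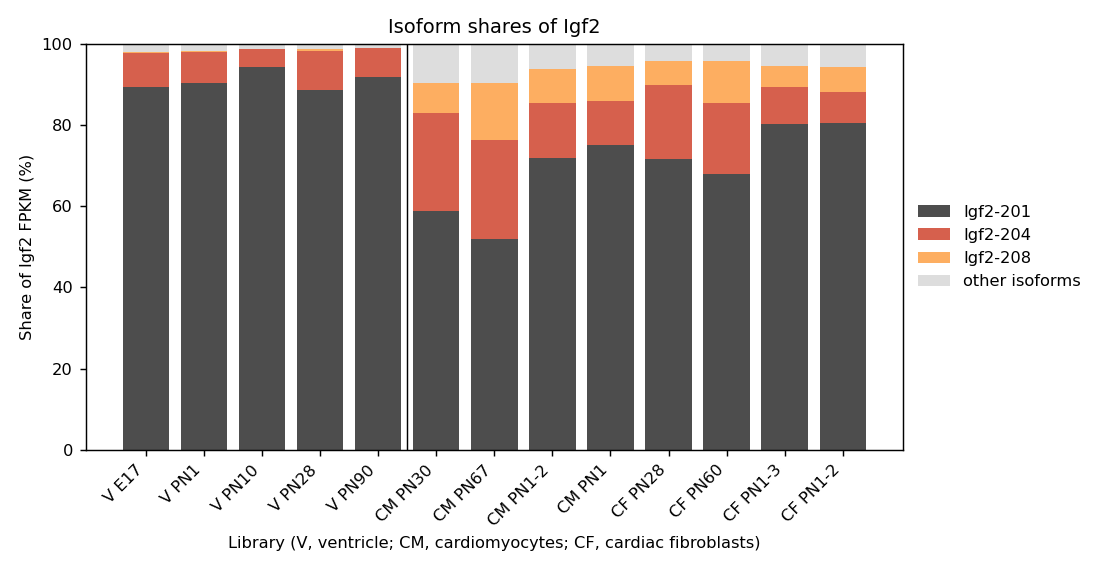
Share of Igf2 FPKM held by each isoform in percent, by library, with ventricles (V) left of the line and cardiomyocytes (CM) and cardiac fibroblasts (CF) right of it; each bar is 1 library. Igf2-201 holds 88.8% to 94.2% in ventricles and 52.0% to 80.6% in cells, with the smallest shares among cells in PN67 and PN30 cardiomyocytes. Library chemistry differs between ventricles and cells, so tissue and protocol cannot be told apart in these shares.

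Of the other members, Grb10 and H19 had 1 dominant isoform in cells and a more even split in ventricles. Grb10-201 held 87.5% to 92.3% and Grb10-203 4.46% to 10.6% in the 8 cell libraries, while in ventricles Grb10-201 held 32.7% to 55.9% and Grb10-203 40.3% to 54.8%. H19-202 held the largest share in every library, 89.8% to 95.1% of H19 in cells and 35.6% to 40.8% in ventricles, where H19-203 and H19-204 held most of the rest. Library chemistry differs between the 2 kinds, so tissue and protocol cannot be told apart in these shares. Igf2r was almost wholly 1 isoform, Igf2r-201, at 97.8% or more in every library.

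The ratio of levels within each of the 2 domains differed between stages, and none of the ratios was tested. The level of Igf2 over that of H19, each per length, was 1.10 at PN30 and 1.04 at PN67 in cardiomyocytes, against 0.516 and 0.585 in the neonatal libraries. In fibroblasts it was 9.70 at PN28 and 6.10 at PN60, against 0.506 and 0.452. In ventricles it was 0.0519 at E17, 0.0722 at PN1, 0.188 at PN10, 0.252 at PN28 and 0.134 at PN90. H19 was therefore the more abundant RNA within every ventricle and neonatal cell library, and Igf2 within the later fibroblast libraries. In later cardiomyocytes the 2 levels were close, with Igf2 slightly above H19, and the ratio was not tested. Library chemistry differs between ventricles and cells, so their ratios are not compared. Meg3 over Dlk1 was 243 and 159 in later cardiomyocytes, against 3.01 and 3.55 in neonatal ones, and 905 and 535 in later fibroblasts, against 4.31 and 3.76, with Dlk1 near 0 in the later libraries.

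**Figure D5:**
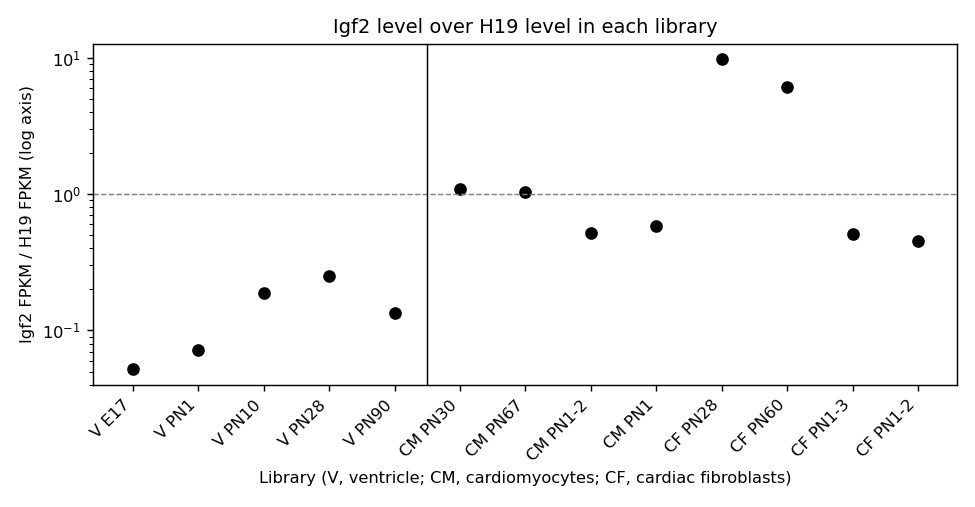
Level of Igf2 divided by that of H19, both in FPKM, on a log axis, with 1 point per library and the dashed line at equal levels. Ventricles (V) lie between 0.0519 and 0.252, and neonatal cells between 0.452 and 0.585. Later cardiomyocytes (CM) lie at 1.04 and 1.10 and later fibroblasts (CF) at 6.10 and 9.70. Library chemistry differs between ventricles and cells, so their ratios are not compared.

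Other imprinted genes were counted in the same fits. Of 42 listed, 22 were tested in cells and 24 in ventricles. In cardiomyocytes 7 were higher and 8 lower in the later libraries (median log2 change -0.07), where 37.2% of all genes were higher and 29.8% lower. In fibroblasts 1 was higher and 9 lower (-0.39), where 19.7% of all genes were higher and 20.8% lower. In ventricles 6 had a positive and 10 a negative slope (median -0.06), where 20.4% and 14.6% of all genes did. The counts in cardiomyocytes were thus near the share over all genes, and those in fibroblasts and ventricles leaned lower. The largest falls in cardiomyocytes were of Peg10, a retrotransposon-derived gene (-2.93 ± 0.20, limma adjusted p = 1.77e-05), Ddc, the dopa decarboxylase (-1.89 ± 0.22), Asb4 (-1.80 ± 0.35) and Nnat (-1.70 ± 0.14). The largest rises were of Slc22a3, an organic cation transporter next to Igf2r (2.00 ± 0.13, limma adjusted p = 1.38e-05), Snrpn (1.49 ± 0.22), Trappc9 (1.40 ± 0.20) and Commd1 (1.01 ± 0.14). In fibroblasts the amino acid transporter Slc38a4 (-3.01 ± 0.31, limma adjusted p = 0.000309) and Ndn (-1.44 ± 0.20) fell furthest, and Axl, a receptor tyrosine kinase, was the 1 that rose (1.00 ± 0.17).

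Genes of the IGF and insulin pathway, which takes up the Igf2 signal, were called in both directions, with more lower than higher. In cardiomyocytes 7 of 22 were higher and 11 lower in the later libraries (median -0.49), and in fibroblasts 3 and 9 (-0.36), against the same shares over all genes, 37.2% and 29.8% in cardiomyocytes and 19.7% and 20.8% in fibroblasts. In ventricles 5 of 19 had a positive and 7 a negative slope (-0.01), against 20.4% and 14.6%. The RNA-binding proteins named for binding Igf2 mRNA were among the falls. The log2 change was -3.14 ± 0.25 for Igf2bp2 and -2.39 ± 0.20 for Igf2bp3 in cardiomyocytes, and -2.39 ± 0.14 for Igf2bp1 and -2.28 ± 0.20 for Igf2bp3 in fibroblasts (limma adjusted p at most 0.000153). In ventricles the slopes were -0.92 ± 0.11 for Igf2bp3, -0.73 ± 0.14 for Igf2bp1 and -0.63 ± 0.08 for Igf2bp2. Igf1r, the main signalling receptor for IGFs, had a slope of -0.40 ± 0.06 (limma adjusted p = 0.00613). Grb14, an adaptor of the Grb10 family, went the other way in muscle cells: it rose in later cardiomyocytes (2.58 ± 0.16, limma adjusted p = 1.21e-05) and fell in later fibroblasts (-1.22 ± 0.16, limma adjusted p = 0.00102), a difference of 3.80 ± 0.23 (limma adjusted p = 1.74e-05). The insulin receptor Insr rose in later cardiomyocytes (1.58 ± 0.17, limma adjusted p = 0.000115). Igfbp6, an IGF-binding protein with preference for Igf2, rose in the later libraries of both, by 2.67 ± 0.39 in cardiomyocytes and 2.95 ± 0.39 in fibroblasts (limma adjusted p = 0.000601 and 0.00105).

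Likeness of pattern was measured as Pearson's r of log2(FPKM + 1) over the 13 libraries, with the ventricle and the cell libraries each centred on their mean, among 10532 genes. The libraries share stages and cell types, so r is a description. The genes most like H19 were Topbp1, Chaf1a and Tcf19 (r of 0.989, 0.989 and 0.988), and those most like Igf2 were Peg3, Cks1b and Dtl (0.984, 0.983 and 0.979). Most like Dlk1 were Fbxl19, Zfp57 and Lrrc42 (0.968, 0.962 and 0.961), and most like Igf2r were Gm11491, Cdc25b and Gins1 (0.978, 0.976 and 0.972). Among the members themselves, H19 and Igf2 had an r of 0.963, while Dlk1 and Meg3 had 0.552. Pairs that do not share a domain ranged from 0.243 (Igf2r and Meg3) to 0.984 (Igf2 and Peg3), and both values lie within this range.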

How the data were processed

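RNA of 13 libraries was sequenced by the authors. The deposited values are FPKM of 94696 transcripts per library in the Cufflinks isoform format. Per the submitters' processing notes, TopHat2 2.0.5 and Cufflinks 2.1.1 were run on mm9. The authors also deposited the coverage of each transcript, used here only as a proxy for depth; the annotation release and any use of strand are not given in the sources used here, so Igf2r and Igf2 cannot be separated from antisense RNA over their exons. Transcripts were named through GENCODE M21 (82379 of 94696, 87.0%), which drops the rest from the sums.

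Transcripts with status HIDATA or FAIL are deposited at 0, so their genes were left out (90 in cells, 64 in ventricles); Mest was among them. LOWDATA transcripts were left out of sums. Gene FPKM was scaled by median ratios within each set. Genes averaging 1 FPKM or more (12076 in cells, 11621 in ventricles) entered limma 3.58.1 under R 4.3.3 as log2(FPKM + 1), with a trended empirical Bayes variance, two-sided p-values and Benjamini-Hochberg adjustment. The cell fit had 4 classes and 4 residual degrees of freedom; the 2 later ages of a cell type formed 1 class, so their difference is part of the error. The ventricle fit was a slope on stage order with 3. The scripts were tested on simulated data. Isoform ratios had 0.5 added to each side; this used genes averaging 5 FPKM or more that never fell below 1, and isoforms averaging 5% to 95% of their gene.

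The members, the lists of other imprinted and IGF pathway genes, the markers and the tests were chosen with earlier results of these data known. All 10 members are named; of the 2 lists, up to 4 genes with the largest called change per direction. Total fragments are unknown, so no counting interval is given. Alternatives were the pseudocount, the filter, the scaling, transcript length, LOWDATA transcripts, log2 of days and leaving out each library. Python 3 scripts prepared the tables and figures.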

Additional observations from a re-analysis of the deposited data

Results flagged for a closer look

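The changes of 5 genes between later and neonatal libraries differed between the cell types by the limma test of the difference itself. Isolation of the later cardiomyocytes differed too and cannot be told apart from cell type. The difference, cardiomyocytes minus fibroblasts, was 2.49 for H19, whose fall was the smaller in cardiomyocytes. It was -3.09 for Plagl1 and -1.17 for Meg3, whose fall was the larger there. It was 1.50 for Cdkn1c, which fell in fibroblasts, while its change in cardiomyocytes did not pass (-0.23 ± 0.18, limma adjusted p = 0.277). It was 2.03 for Dlk1, and 1.21 with a pseudocount of 0.1 in place of 1; later Dlk1 stood at 0.495% of its neonatal level in cardiomyocytes and 0.422% in fibroblasts, so as a share of the neonatal level its falls were nearly equal. The other values are on the log2(FPKM + 1) scale.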

How the results depend on the processing

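Counts of members called stayed within 1.5 times of those reported under every alternative run. Calls over all genes with other settings were 8064 to 10100 in cardiomyocytes, 4775 to 6195 in fibroblasts and 6879 to 8070 for the difference. They were 4825 to 5599 between neonatal cell types, 9352 to 12251 between later ones and 1062 to 4716 for the ventricle slope. The filter changes how many genes are tested, so these are not shares. With other settings the members called were 7 to 9 of 9 in cardiomyocytes, 8 to 9 in fibroblasts and 5 for the difference. They were 3 to 4 between neonatal and 5 to 7 between later cell types, and 6 to 9 for the ventricle slope. Leaving out 1 library gave 7 to 8, 8 to 9, 5 to 6, 3 to 4, 4 to 6 and 6 to 9. The isoform count in cardiomyocytes was 2, and 2 to 4 when a library was left out. In fibroblasts it was 1, and 0 with an offset of 0.1, or 0 to 1 when a library was left out.

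Of 737 values of single members under an alternative, 682 kept direction and side of the threshold, 39 lost the call, 11 gained one and 5 changed sign. The sign changes were in values not called: Grb10 between later cell types (-0.065 with equal sums) and neonatal ones (-0.11 to 0.017 when a library was left out), Igf2 in the difference (-0.82 to 0.25), and Igf2r between neonatal cell types (-0.18 to 0.12, with 0.044 without the PN1 cardiomyocytes); the cause was not tested. The ventricle calls of Cdkn1c, Dlk1 and Igf2r were lost with a slope on log2 of days after conception, with birth taken as day 19 (adjusted p = 0.186, 0.130 and 0.0646). The Dlk1 call was also lost without a filter (0.0754) and without PN28 (0.0588), and the Igf2r call without E17 (0.0591). The difference for Igf2r passed without the PN60 fibroblasts (1.01, adjusted p = 0.00386). Over all genes, the ventricle slope had 4060 calls, against 1062 on log2 of days, 1233 without E17, 2401 without PN1 and 2348 without PN28. Fibroblasts had 4888, against 2747 without the PN1-2 library, and neonatal cell types 4894, against 2607, 2970 and 2928 without the PN1-2 or PN1 cardiomyocytes or the PN1-3 fibroblasts. No paired analysis was possible because the labels give no replicate numbers shared between groups. With 1 library per ventricle stage and 2 per cell class, small changes may go undetected.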
